A study of Mus musculus with 8 samples.

Results

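The levels of 10 genes of the adipocyte, Adipoq, Plin1, Cidec, Lep, Retn, Fabp4, Lpl, Pparg, Lipe and Pnpla2, were read in KPC pancreatic tumors grown in mice with and without complement C3. They were taken by gene name from the deposited count table, which listed all 10 among its 29968 genes. KPC FC1245 cells, a pancreatic cancer cell line from the tumor of a mouse that carried Pdx-1-Cre and a mutant Trp53 allele, were injected at 250000 cells in 50 μL of PBS into the tail of the pancreas of male mice aged 12 weeks, and tumors were collected at an endpoint of 14 days. RNA was sequenced from 4 tumors of WT (C57BL/6J) hosts and 4 tumors of C3-/- hosts, in which the C3 gene is deleted. The injected cells of both groups retained the C3 gene, so tumor RNA still holds its transcript. No sample of fat or of tumor-free pancreas was analysed here, so the level that pure fat would give is not known from these data.

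White adipocytes store triglyceride in a single droplet. Lipoprotein lipase releases fatty acids from circulating lipoproteins for uptake, PPARγ drives the program that makes and keeps the cell an adipocyte, droplet proteins such as perilipin 1 guard the store, and the lipases ATGL and HSL empty it. Adipocytes also secrete hormones, among them adiponectin, leptin and, in mice, resistin. Of the 10 genes, Adipoq, Plin1, Cidec, Lep and Retn are largely restricted to fat, with Cidec also known in liver, and are called the restricted genes here. Fabp4, Lpl, Pparg, Lipe and Pnpla2 are also used by endothelial cells, macrophages, muscle or epithelia and are called the broad genes. In bulk tumor RNA, fewer adipocytes and less of a transcript per adipocyte cannot be told apart.

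Total counts were 13.3 to 23.4 M per tumor, and 16610 genes passed the filter on low counts. The count of C3 followed the labels. At 209 to 425 CPM (counts of a gene per 1 M in its tumor, with library totals scaled by TMM) in WT tumors and 100 to 133 CPM in C3-/- tumors, the groups did not overlap. No pair of tumors of a genotype was a repeat of 1 library, since the smallest chi-square per gene among these pairs was 15.2. Muscle and acinar transcripts varied widely. The summed level of 10 skeletal muscle markers was 1558 to 3920 CPM in 5 tumors (WT 1, WT 4, C3-/- 1, C3-/- 3 and C3-/- 4) and 14.5 to 30.0 CPM in the other 3, and that of 10 acinar markers was 1883 CPM in C3-/- 1 and 39.3 to 564 CPM elsewhere.

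The stretches just upstream of Adipoq and Plin1 are shown because both genes were highest in the same 2 tumors, WT 2 and C3-/- 1. Each is the 250 bases before the start of the Ensembl canonical transcript, read from GRCm39 (mm39) with GENCODE vM39 and printed 5′ to 3′ on the strand of the gene, and none of the bases lies in an annotated exon. Adipoq is on the + strand (chr16:22965036-22965285) and Plin1 on the - strand (chr7:79382719-79382968). Capitals mark matches, on either strand, to the C/EBP-type letters TTNNGNAA. The nuclear receptor half-site AGGTCA was also searched.
Adipoq: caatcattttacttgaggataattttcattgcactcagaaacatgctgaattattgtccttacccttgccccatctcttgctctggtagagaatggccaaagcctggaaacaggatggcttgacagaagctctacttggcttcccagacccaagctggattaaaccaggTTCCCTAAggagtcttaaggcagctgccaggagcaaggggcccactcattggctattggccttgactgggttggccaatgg
Plin1: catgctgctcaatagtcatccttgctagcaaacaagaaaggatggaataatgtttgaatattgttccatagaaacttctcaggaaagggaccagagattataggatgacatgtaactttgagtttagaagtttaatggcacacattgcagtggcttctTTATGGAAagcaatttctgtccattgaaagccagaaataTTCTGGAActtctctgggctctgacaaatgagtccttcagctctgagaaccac

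The C/EBP-type letters occurred in both windows and in 36.9% of the windows of 21770 protein-coding genes. The match in Adipoq lay at -81 to -74, counted from the transcript start. Plin1 held a match at -92 to -85 and another at -53 to -46. The half-site, which 13.1% of all windows held, was in neither, nor was its direct repeat with 1 base between the copies (0.0367% of all), the arrangement that PPARγ and RXR are known to prefer. A match of letters does not show a bound site.

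Of the restricted genes, Adipoq, Plin1, Lep and Retn were scarce in 6 of the tumors and highest in WT 2. Adipoq (chr16:22965286-22976778), the gene of the hormone adiponectin, had 26, 595, 3 and 70 counts in WT tumors 1 to 4 and 194, 21, 30 and 25 counts in C3-/- tumors 1 to 4, or 1.61, 44.8, 0.226 and 2.97 CPM and 9.06, 1.17, 1.89 and 1.36 CPM. WT 2 was 4.94-fold above the next tumor, C3-/- 1, and WT 3 had almost none. The groups overlapped. The log2 fold change of C3-/- over WT was -1.85 (SE 1.25, 95% interval -4.64 to 0.93, adjusted p = 0.993, edgeR's quasi-likelihood test with Benjamini-Hochberg adjustment), from 12.4 ± 21.6 CPM in WT and 3.37 ± 3.80 CPM in C3-/- tumors (SD, n = 4 each).

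Plin1 (chr7:79369966-79382651), which encodes the perilipin that coats the adipocyte droplet, had 2, 371, 4 and 14 counts in WT tumors and 52, 3, 7 and 4 counts in C3-/- tumors. WT 2, at 27.9 CPM, was 11.5-fold above C3-/- 1, the next tumor, and 92.8-fold above the median of the other 7. Plin1 missed the filter, since 5 of the 8 tumors had 7 counts or fewer, and its log2 fold change of -3.08 (SE 1.28) comes from the fit without a filter, with an unadjusted p of 0.0293 and an adjusted p of 0.810 (edgeR). Its exact two-sided permutation p over the 8 tumors was 0.657.

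Retn (chr8:3705770-3710110), the gene of resistin, had 6, 301, 10 and 37 counts in WT tumors and 91, 7, 7 and 7 counts in C3-/- tumors. WT 2 was again highest at 22.6 CPM, C3-/- 1 followed at 4.25 CPM, and WT 4, at 1.57 CPM, came next. The log2 fold change was -2.16 (SE 1.27, adjusted p = 0.985, edgeR). Lep (chr6:29060219-29073876), the gene of leptin, had 1, 35, 0 and 0 counts in WT tumors and 5, 0, 3 and 1 counts in C3-/- tumors. WT 2 stood well clear of the detection limit, and C3-/- 1, with 5 counts (0.234 CPM), lay just above it. A count of 0, seen in 3 tumors, allows up to 3 counts, which is 0.127 to 0.226 CPM at these depths (for counting error alone), and the Lep value of 2.63 CPM in WT 2 lay above it. Lep missed the filter too, and its fitted log2 fold change without a filter was -2.36 (SE 1.36, adjusted p = 0.810, edgeR).

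Cidec (chr6:113401595-113412721), whose product fuses lipid droplets, differed from the other restricted genes by a higher floor. It had 381, 1140, 274 and 381 counts in WT tumors and 705, 246, 209 and 204 counts in C3-/- tumors, or 23.7, 85.7, 20.6 and 16.2 CPM and 32.9, 13.8, 13.2 and 11.1 CPM. WT 2 and C3-/- 1 were again the highest tumors of their groups, and the other 6 tumors spanned 2.12-fold. The number of Cidec counts per Adipoq count was 1.92 in WT 2, 3.63 in C3-/- 1 and 5.44 or more in the other 6. The log2 fold change was -1.04 (SE 0.55, adjusted p = 0.971, edgeR).

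**Figure D1:**
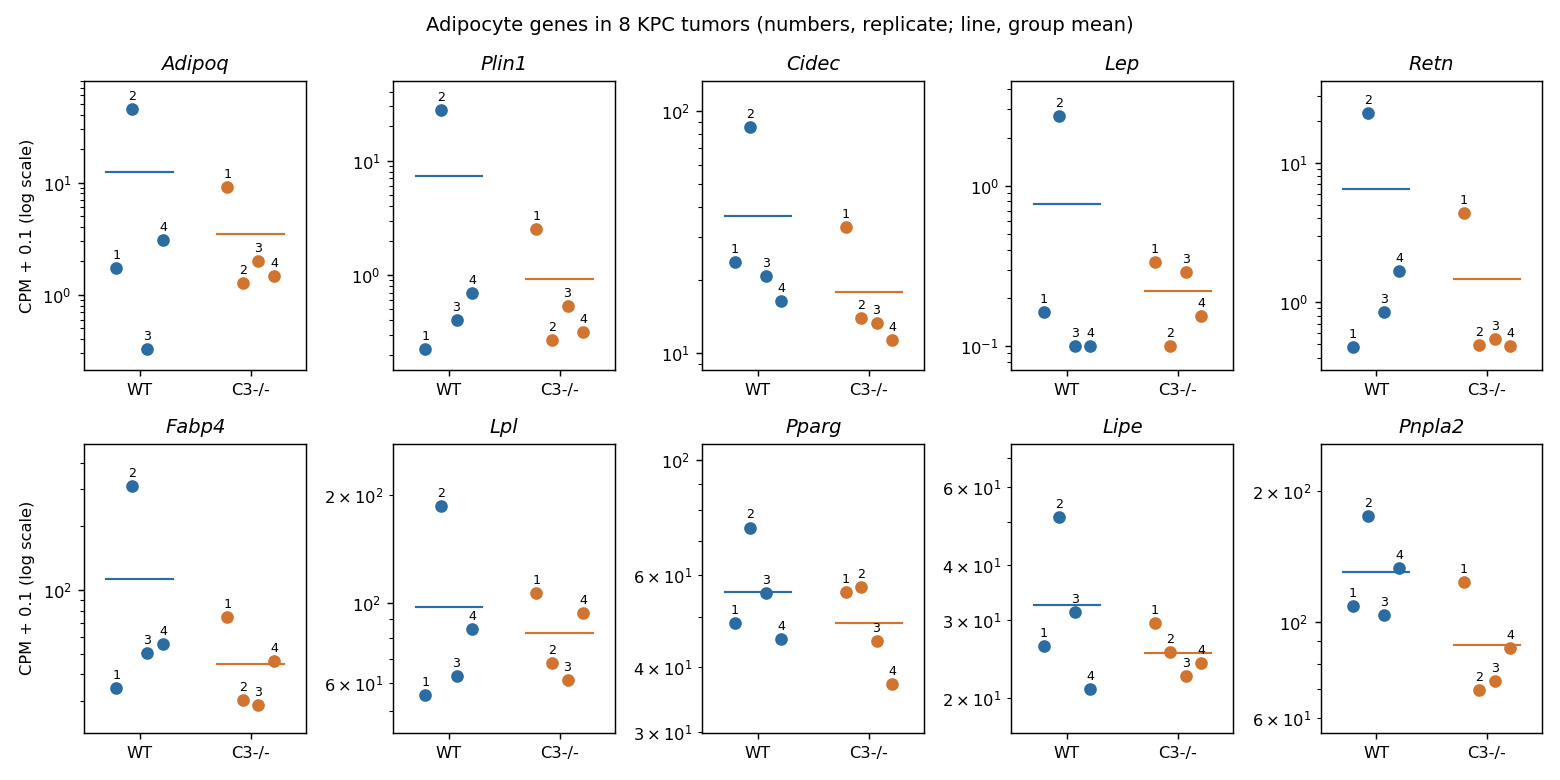
CPM plus 0.1 on a log axis for each of the 10 adipocyte genes in 4 WT (blue) and 4 C3-/- (orange) tumors, each point a tumor with its replicate number and each line a group mean. WT 2 is the highest of the 8 tumors for all 10 genes, and C3-/- 1 is second for 7 of them.

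Among the broad genes, Fabp4 had the largest excess in WT 2. Fabp4 (chr3:10269148-10273636), the fatty acid binding protein of adipocytes and also of endothelium, had 34.2, 312, 50.1 and 55.4 CPM in WT tumors and 74.4, 30.0, 28.4 and 46.1 CPM in C3-/- tumors. WT 2 was 4.19-fold above C3-/- 1, the next tumor, and the groups overlapped. The log2 fold change was -1.33 (SE 0.66, adjusted p = 0.971, edgeR).

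Lpl (chr8:69333143-69360100), which encodes lipoprotein lipase, had 55.4, 186, 62.7 and 84.4 CPM in WT tumors and 106, 68.0, 60.8 and 93.7 CPM in C3-/- tumors. WT 2 was 1.75-fold above the next tumor, again C3-/- 1. The log2 fold change was -0.24 (SE 0.36, 95% interval -1.04 to 0.56, adjusted p = 0.999, edgeR).

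Pparg (chr6:115337912-115467360), the transcription factor gene, had 48.5, 74.1, 55.4 and 45.1 CPM in WT tumors and 55.7, 56.8, 44.8 and 37.0 CPM in C3-/- tumors. It varied least of the 10, with WT 2 at 1.53-fold the median of the other 7 tumors, and its log2 fold change was -0.20 (SE 0.19, 95% interval -0.63 to 0.23, adjusted p = 0.999, edgeR). Lipe (chr7:25078952-25098135), which encodes hormone-sensitive lipase (HSL), had 26.1, 51.3, 31.3 and 20.9 CPM in WT tumors and 29.4, 25.3, 22.3 and 23.9 CPM in C3-/- tumors, and C3-/- over WT gave -0.36 on the log2 scale (SE 0.25, adjusted p = 0.999, edgeR). Both genes overlap another gene in the table (Gm44079 with 20 counts over all tumors for Pparg, 4732471J01Rik with 259 for Lipe), and since the strand setting of the counting is not given in the sources used here, reads in the overlaps cannot be assigned with certainty.

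Pnpla2 (chr7:141035111-141040656), which encodes adipose triglyceride lipase (ATGL) and is used by many cell types, had 109, 176, 104 and 133 CPM in WT tumors and 123, 69.4, 72.7 and 86.9 CPM in C3-/- tumors. Only C3-/- 1 reached the WT range. Its log2 fold change was -0.56 (SE 0.22, 95% interval -1.05 to -0.07), with an unadjusted p of 0.0283 and an adjusted p of 0.971 (edgeR), and the exact two-sided permutation p was 0.0857, where 0.0286 is the smallest that 4 against 4 tumors allow. Pnpla2 kept this direction in each of the 16 alternative fits, from -0.77 to -0.39. Cidec, Fabp4, Pparg and Lipe also stayed below 0 in all 16, and the fits share tumors.

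In edgeR's quasi-likelihood test 0 of the 8 adipocyte genes tested had an adjusted p below 0.05, as did 0% of the 16610 genes tested. At an unadjusted p below 0.05, 1 of the 8 (Pnpla2) was lower in C3-/- tumors, beside 2.07% of all genes lower and 5.11% in either direction. DESeq2 called 0 of the 5 members to which it gave an adjusted p, beside 0.0848% of all genes with one, and limma-voom called 0. All 8 fold changes were below 0, beside 50.0% of all genes tested, but these 8 rest on the same tumors and share WT 2. The CPM of WT and C3-/- tumors overlapped for all 10 genes, while for 3.73% of genes tested the groups did not overlap.

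The direction of several of these differences depended on WT 2. This tumor was the highest of the 8 tumors for all 10 genes, 8 of them tested, beside 10.8% of genes tested, and it exceeded 3 times the median of the other 7 tumors for 4 of the 8 tested, beside 0.578% of genes tested. DESeq2 withheld its p-value, through its filter on single outlying counts, from 5 of the 10 (Adipoq, Plin1, Lep, Retn and Fabp4), beside 0.227% of the 29968 genes in the table, which is 68 genes, 23 of them with their highest value in WT 2.

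Without WT 2 the log2 fold change was above 0 for Adipoq (1.03), Plin1 (1.21), Lep (2.25), Retn (0.59) and Lpl (0.28). It stayed below 0 for Cidec (-0.18), Fabp4 (-0.06), Pparg (-0.03), Lipe (-0.05) and Pnpla2 (-0.39), each smaller in size than with all tumors. That makes 5 of the 8 tested, beside 50.2% of all genes in that fit. In that fit 0 of the 8 had an unadjusted p below 0.05 (edgeR), beside 1.99% of genes lower at that threshold. Leaving out C3-/- 1 alone moved the values the other way. Then 4 of the 8 tested (Cidec, Fabp4, Pnpla2 and Retn) were lower in C3-/- tumors at an unadjusted p below 0.05, beside 5.57% of genes in that fit, and the smallest adjusted p was 0.360 (edgeR). The count was 3 of 9 without WT 1 and without WT 3 (Fabp4, Plin1 and Pnpla2 each time), beside 2.19% and 1.97% of genes, and 2 of 8 (Cidec and Fabp4) without WT 4, beside 1.60%. It was 0 without C3-/- 2, C3-/- 3 or C3-/- 4, beside 2.04%, 1.09% and 1.90% of genes. With both WT 2 and C3-/- 1 left out, an alternative chosen after seeing the data, 7 of the genes were tested and Lpl (0.14) was above 0. Cidec (-0.67, unadjusted p = 0.00900) and Pnpla2 (-0.59, unadjusted p = 0.00346) were then lower in C3-/- tumors at an unadjusted p below 0.05 in edgeR, which 5.63% of genes in that fit were, and neither passed adjustment.

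**Figure D2:**
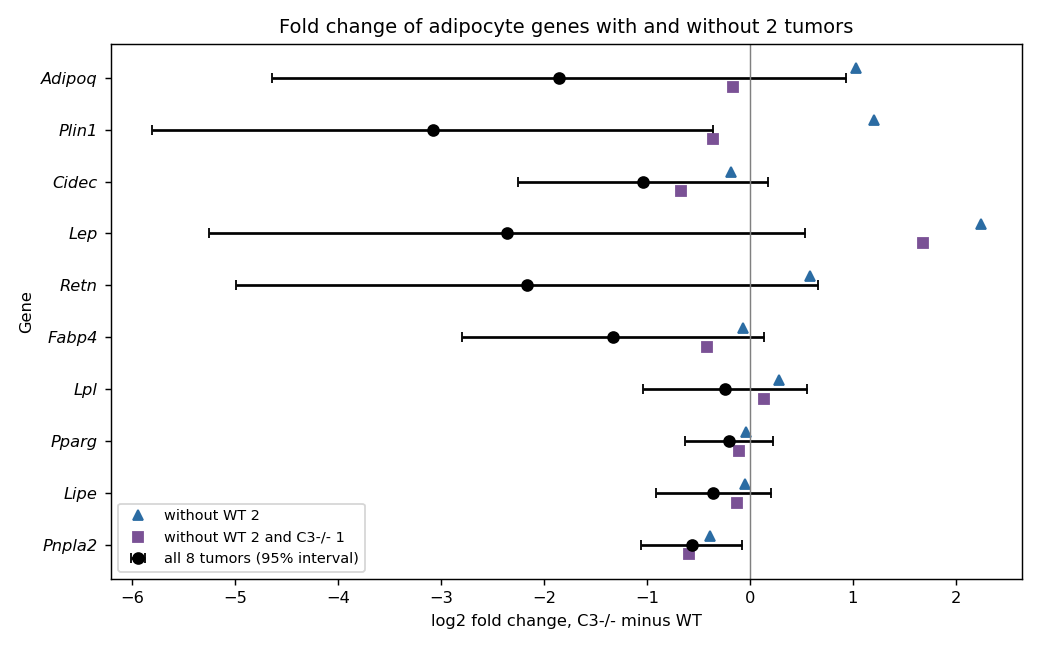
log2 fold change of C3-/- over WT tumors for each of the 10 genes from edgeR, with all 8 tumors (black, with 95% interval), without WT 2 (blue triangles) and without WT 2 and C3-/- 1 (purple squares, none for Retn, which was then not tested). Plin1 and Lep are from the fit without a filter. Adipoq, Plin1, Lep, Retn and Lpl cross 0 when WT 2 is left out. Cidec, Fabp4, Pparg, Lipe and Pnpla2 stay below 0 in all 3 fits (Pnpla2 at -0.56, -0.39 and -0.59).

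The sum of the 5 restricted genes gave the same order of tumors as Adipoq at its top. It was 184 CPM in WT 2, 48.9 in C3-/- 1, 25.8 in WT 1, 21.9 in WT 3, 21.3 in WT 4, 16.1 in C3-/- 3, 15.5 in C3-/- 2 and 13.2 in C3-/- 4. In every tumor but WT 2 the sum was mostly Cidec, and without Cidec it was 97.9 CPM in WT 2, 16.0 in C3-/- 1 and 1.28 to 5.14 CPM in the other 6. The group means of the full sum were 63.2 ± 80.4 CPM in WT and 23.4 ± 17.0 CPM in C3-/- tumors (SD, n = 4 each), a ratio of WT over C3-/- of 2.70. The ratio was 0.983 without WT 2, when C3-/- 1 remained in the other group, and 1.54 without both. The 3 other WT tumors averaged 23.0 ± 2.45 CPM (SD, n = 3), and the lowest of them (21.3 CPM) lay above the highest of the 3 other C3-/- tumors (16.1 CPM). That gap came from Cidec, since without it these WT tumors (1.28 to 5.14 CPM) and C3-/- tumors (1.73 to 2.96 CPM) overlapped.

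The tumors with most restricted transcript were not marked by other tissues in the same way. WT 2, the highest, had the lowest muscle sum, 14.5 CPM, and an acinar sum of 169 CPM, whereas C3-/- 1, the second, had 1950 CPM of muscle and the highest acinar sum. The part of muscle and pancreas in the adipocyte values was not tested. The sum of the 5 broad genes was 799 CPM in WT 2, 389 in C3-/- 1 and 229 to 339 CPM in the other 6 tumors.

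**Figure D3:**
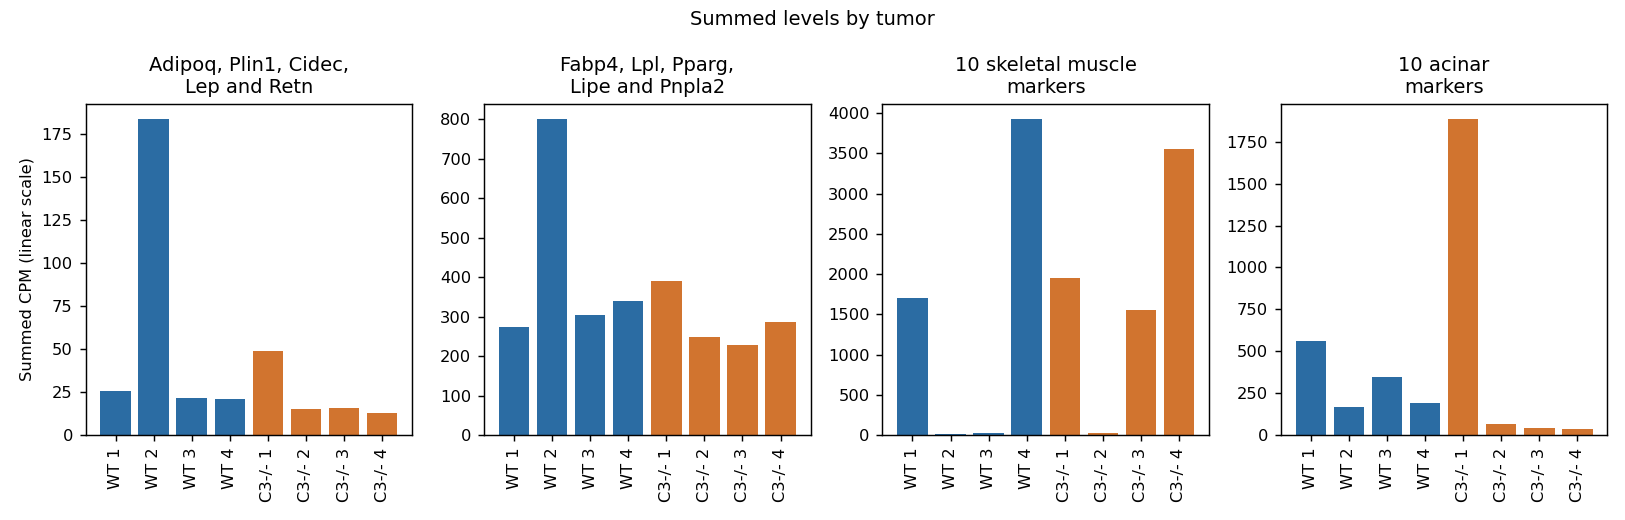
Summed CPM in each of 4 WT (blue) and 4 C3-/- (orange) tumors, on linear axes from 0, for the 5 restricted genes, the 5 broad genes, 10 skeletal muscle markers and 10 acinar markers. The restricted sum is 184 CPM in WT 2 and at most 48.9 CPM elsewhere, while WT 2 has little muscle and C3-/- 1 has the most acinar transcript.

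The 10 genes varied together over the 8 tumors, and much of that rested on WT 2. On log2(CPM + 0.1), Pearson's r was positive for all 45 pairs, from 0.52 to 0.98 with a median of 0.83, and 22 pairs had an adjusted p below 0.05 in an exact permutation test (Benjamini-Hochberg over the 45 pairs). By Spearman's rho, which reads ranks alone, 0 of the 45 passed and the median was 0.54. With the 2 tumors farthest from the median of the first gene left out, the median r was 0.31 and 29 of the 45 were positive. Without WT 2 alone the median was 0.39 and 0 pairs passed. Without C3-/- 1 alone 0 pairs passed either, but r was about as large, with a median of 0.84 and all 45 positive. Since WT 2 and C3-/- 1 stand apart from the rest, the pooled r values are given as a description of these tumors.

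Pairs differed in how far r fell with tumors left out. Plin1 and Retn had r = 0.98 and rho = 0.95 (adjusted p = 0.0151 and 0.0513, exact permutation tests), and r was 0.78 without WT 2 and C3-/- 1. Retn and Fabp4 had r = 0.96 and rho = 0.79 (adjusted p = 0.0151 and 0.172, exact permutation tests), and r was 0.86 without WT 2 and 0.73 without both. Adipoq and Retn had r = 0.87 and rho = 0.67 (adjusted p = 0.0249 and 0.208, exact permutation tests), and Adipoq and Plin1 r = 0.90 and rho = 0.79 (adjusted p = 0.0249 and 0.172, exact permutation tests). For these 2 Adipoq pairs, left without WT 2 and WT 3, r was 0.97 and 0.96, and C3-/- 1 was then still included. Without WT 2 alone, r was 0.94 for Plin1 and Retn, 0.65 for Adipoq and Retn and 0.72 for Adipoq and Plin1. Adipoq was least like Pparg (r = 0.53) and Lipe (r = 0.61), and these r values were -0.052 and -0.26 without WT 2.

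**Figure D4:**
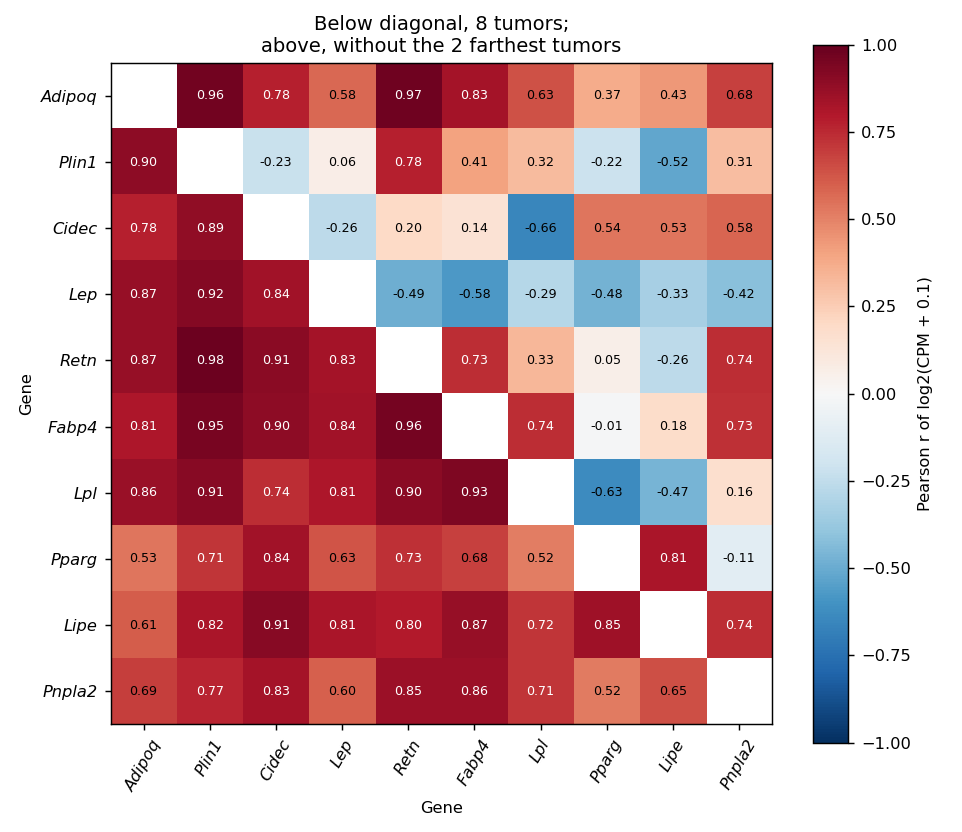
Pearson's r of log2(CPM + 0.1) for each pair of the 10 genes, below the diagonal over 8 tumors and above it without the 2 tumors farthest from the median of the first gene of the pair. All 45 values below the diagonal are positive, and 29 of the 45 above it are.

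The restricted sum was set against each broad gene and each of 9 tissue marker lists, 14 relations in all. Fabp4 (r = 0.93, rho = 0.69, adjusted p = 0.0470 and 0.194) and Pnpla2 (r = 0.83, rho = 0.79, adjusted p = 0.0470 and 0.194) passed by r in exact permutation tests. The other 12, among them Lipe (r = 0.90), Lpl and Pparg (both 0.81), did not, and none passed by rho. Without WT 2 and C3-/- 1, r was 0.23 for Fabp4 and 0.72 for Pnpla2 (exact permutation p = 0.689 and 0.125). For Fabp4 r was 0.66 without WT 2 alone and 0.94 without C3-/- 1 alone, with 7 tumors, and neither passed. For Pnpla2 these r values were 0.70 and 0.83, and neither passed, so that for both genes passing depended on each of these tumors. Endothelial markers (r = 0.31), macrophage markers (r = 0.14), adipose progenitor markers (r = 0.40) and muscle markers (r = -0.42) did not pass. The acinar sum had r = 0.42 over the 8 tumors and 0.96 in the 6 without WT 2 and C3-/- 1, where the restricted sum is mostly Cidec.

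Levels were compared between genes on the FPKM values of the authors, which are scaled by gene length. The length used for Fabp4, 4489 bases, equals the whole span of the gene with its introns, so that its FPKM would be higher, and its place in the order could differ, with the length of its exons alone. The median FPKM over the 8 tumors ran from Pnpla2 (35.0) through Pparg (17.5), Fabp4 (10.6), Cidec (9.81), Lpl (7.19), Lipe (4.35), Adipoq (1.27), Retn (0.375) and Plin1 (0.0792) to Lep (0.0173). The ranges of every pair of neighbours in this order overlapped over the tumors, although Pnpla2 was above Pparg, Lpl above Lipe, Retn above Plin1 and Plin1 above Lep within all 8. In WT 2 the order was another. Fabp4 was first at 69.1 FPKM, ahead of Pnpla2 (57.8), Cidec (45.9) and Adipoq (32.2), so that Adipoq moved from rank 7 to rank 4 and above Pparg (24.9 FPKM).

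The genes whose log2 CPM (prior count 2) was most like that of Adipoq over the 8 tumors, outside the 10, were Serpina3c (r = 0.98), Hnmt (0.97), Mex3d (0.96), Cyp2e1 (0.96), 6030445D17Rik (0.94), Nicn1 (0.93), Gdf15 (0.93), Sbsn (0.92), Cspg4b (0.92) and Spsb3 (0.92). Among all 16610 genes tested, with the adipocyte genes included and Adipoq itself at rank 1, Retn ranked 31, Lpl 44, Fabp4 104, Cidec 168, Pnpla2 380, Lipe 702 and Pparg 1132. The size of the excess in WT 2 differed among them. Cyp2e1, a cytochrome P450 of liver that fat also expresses, was at 186 CPM in WT 2, 22.0 CPM in C3-/- 1 and 0.301 to 9.68 CPM in the other 6 tumors, and Serpina3c at 9.70, 2.06 and 0 to 1.15 CPM. Hnmt was at 3.84 CPM in WT 2, 2.90 CPM in C3-/- 1 and 1.58 to 2.51 CPM in the other 6. These likenesses are over 8 tumors of unequal depth and are a description.

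Further adipocyte genes, a list of 14 of which 11 were tested, gave a median log2 fold change of -0.66, which was 0.07 without WT 2, beside -5.63e-05 over all genes tested. None passed adjustment in edgeR. Of the 11, 2 had an unadjusted p below 0.05 and were lower in C3-/- tumors, beside 2.07% of all genes, and neither had one without WT 2. Not all of the list was high in WT 2. Slc2a4, Gpd1 and Tmem120b lay there at 0.468-, 0.844- and 0.938-fold the median of the other tumors, and Cidea and Nnat at 1.13- and 1.14-fold. The rest of the list was at 3.76-fold or more. Cfd encodes adipsin, the factor D protease of the alternative complement pathway, which fat secretes. It had 8.75, 163, 13.2 and 33.8 CPM in WT tumors and 103, 5.20, 9.75 and 11.6 CPM in C3-/- tumors, so that WT 2 and C3-/- 1 were high for Cfd as they were for Adipoq. On the log2 scale C3-/- over WT was -0.74 (SE 1.07, adjusted p = 0.999, edgeR), 0.80 without WT 2, -2.63 without C3-/- 1 and -1.07 without both.

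Pck1, the gene of cytosolic PEP carboxykinase, had the lowest log2 fold change of this list (-4.43, SE 1.54, unadjusted p = 0.0164, edgeR). Its counts were 19, 749, 4 and 60 in WT tumors and 43, 4, 6 and 1 in C3-/- tumors, so that WT 2 was far above the rest, and without it the log2 fold change was -1.01. Mrap, an accessory protein of melanocortin receptors, had 1.12, 11.1, 2.86 and 2.68 CPM in WT tumors and 2.80, 1.12, 0.503 and 1.09 CPM in C3-/- tumors (log2 fold change -1.66, SE 0.71, unadjusted p = 0.0407, edgeR), and without WT 2 the log2 fold change was -0.67 (unadjusted p = 0.264, edgeR). Acvr1c, the gene of the receptor ALK7, missed the filter. It had 3, 44, 4 and 12 counts in WT tumors and 3, 3, 0 and 2 counts in C3-/- tumors, and its CPM did not overlap between the groups, although most tumors were near the limit of detection. Without a filter its log2 fold change was -3.22 (unadjusted p = 0.00428, adjusted p = 0.810, edgeR), and -1.61 without WT 2 (unadjusted p = 0.114, edgeR). Tmem120b was at the other end with a log2 fold change of 0.28 (SE 0.26).

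Brown fat genes were not high in WT 2. Ucp1, the uncoupling protein that defines brown and beige adipocytes, had 0, 0, 1 and 4 counts in WT tumors and 4, 0, 0 and 4 counts in C3-/- tumors, and WT 2 was among those at 0. Of the list of 8 genes, 5 were tested, with log2 fold changes from -0.14 (Dio2, but 0.05 without C3-/- 1) to 0.11 (Cox8b, but -0.28 without WT 2) and none with an unadjusted p below 0.05. The summed level of the list was 25.8 CPM in WT 2 and 15.9 to 31.0 CPM over the 8 tumors.

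Adipogenic transcription factors, 11 genes all tested, had a median log2 fold change of 0.02. Nr1h3 (LXRα, a sterol sensor of adipocytes, liver and macrophages) was higher in every C3-/- tumor than in any WT tumor, at 12.6, 13.6, 13.7 and 9.60 CPM against 25.6, 14.7, 18.7 and 16.8 CPM (log2 fold change 0.62, SE 0.21, unadjusted p = 0.0130, adjusted p = 0.960, edgeR). Cebpd, an early factor of adipogenesis that inflammation also induces, was higher in the same way (0.41, SE 0.16, unadjusted p = 0.0284, adjusted p = 0.971, edgeR). Ebf2, a factor of beige and brown precursors, was lower (-0.86, SE 0.38, unadjusted p = 0.0477, edgeR) and Klf15 had the lowest fold change (-1.26, SE 0.59, unadjusted p = 0.0569, edgeR). None of these 4 turned its sign without WT 2. The unadjusted p was then 0.0190 for Nr1h3, 0.0450 for Cebpd, 0.0598 for Ebf2 and 0.0921 for Klf15 (edgeR).

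The genes that fill, empty and feed the lipid store had median log2 fold changes below 0, and none passed adjustment in edgeR. In triglyceride synthesis, 13 genes tested, the median was -0.11 on the log2 scale, and the same without WT 2, from Scd1 (-0.62, and -0.35 without WT 2) to Fasn (0.22), the fatty acid synthase. Scd1, the desaturase, had 108, 219, 114 and 136 CPM in WT tumors and 103, 78.3, 104 and 90.2 CPM in C3-/- tumors, groups that did not overlap (unadjusted p = 0.0175, adjusted p = 0.960, edgeR). In lipolysis, 8 of 9 tested, the median was -0.25 (-0.19 without WT 2), from G0s2 (-0.61, but 0.06 without WT 2), an inhibitor of ATGL, to Pde3b (0.11, and 0.20 without WT 2). None had an unadjusted p below 0.05 over all tumors. Without C3-/- 1, 2 of 8 were lower at that threshold, beside 5.57% of genes, and 1 of 8 was without WT 1 or C3-/- 4, beside 2.19% and 1.90%. In lipid uptake, 9 tested, the median was -0.17 (-0.15 without WT 2), from Cd36 (-1.22, and -0.51 without WT 2), a fatty acid transporter, to Fabp5 (0.23, but -0.19 without C3-/- 1). Over all tumors none had an unadjusted p below 0.05, and 1 of 9 was lower at that threshold without WT 3 or C3-/- 1, beside 1.97% and 5.57% of genes.

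Of 11 adipokines and receptors 10 were tested and the median log2 fold change was -0.13 (-0.045 without WT 2), from Apln (-0.67), the gene of apelin, to Rbp4 (0.34, and 0.11 without C3-/- 1). The receptors of adiponectin and leptin varied little between tumors. Adipor1 was at 189 ± 7.56 CPM in WT and 169 ± 19.9 CPM in C3-/- tumors, Adipor2 at 130 ± 14.9 and 129 ± 6.64 CPM, and Lepr at 60.1 ± 6.50 and 54.4 ± 8.57 CPM (SD, n = 4 each). Angptl2, a secreted angiopoietin-like protein, was lower in C3-/- tumors at an unadjusted p of 0.0299 (log2 fold change -0.34, SE 0.14, adjusted p = 0.971, edgeR).

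Over the 9 tissue marker lists no gene passed adjustment in edgeR. Among 8 adipose progenitor markers, Dlk1, known to restrain adipogenesis and also a marker of other cells, was higher in every C3-/- tumor (8.55 ± 4.37 against 17.3 ± 3.73 CPM, SD, n = 4 each, log2 fold change 1.02, SE 0.35, unadjusted p = 0.0159, edgeR), and Pdgfra, the lowest, had a log2 fold change of -0.47 (unadjusted p = 0.0725, edgeR). At an unadjusted p below 0.05, 3 of 7 hepatocyte markers tested (Alb, Fgb and Ahsg) and 3 of 6 mesothelial markers (Upk3b, Lrrn4 and Upk1b) were lower in C3-/- tumors, beside 2.07% of all genes, and 2 of 3 B cell markers tested (Cd79a and Cd22) were higher, beside 3.03%. WT 4 was far above the other tumors for the 3 hepatocyte markers (Alb at 35.7 CPM, against at most 5.71 CPM elsewhere), and without it 1 of 7 was lower. The mesothelial count was 2 to 5 of 6 with each tumor left out (5 without WT 1, 2 without WT 2), and the B cell count fell to 0 of 3 without C3-/- 1 or C3-/- 4 and to 1 of 4 without WT 2, WT 4 or C3-/- 3. The hepatocyte markers Fga and Serpina1a, below the filter, were lower at that threshold in the fit without one. The endothelial, macrophage, muscle, acinar and epithelial lists had none over the 8 tumors. Without C3-/- 1, the tumor with the highest acinar sum, 10 of 10 acinar, 2 of 7 epithelial and 1 of 8 endothelial markers were lower, beside 5.57% of genes in that fit. Without C3-/- 2, 3 of 8 macrophage markers were higher, beside 2.81% of genes. Without C3-/- 4, 1 of 8 endothelial and 2 of 8 adipose progenitor markers were lower, beside 1.90% of genes. In WT 2 the sums of endothelial (330 CPM), macrophage (1197 CPM) and progenitor (343 CPM) markers lay within the range of the other tumors.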

How the data were processed

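RNA from 4 WT and 4 C3-/- KPC tumors was sequenced as poly-A selected read pairs. The paper names STAR and HTSeq for alignment to mm39 and counting, whereas the submitters' processing notes name HISAT2 2.0.5 and DESeq2 1.20.0. The setting for strand is not given in the sources used here. The authors deposited raw counts per gene, which entered all tests, and FPKM values per gene, which served only to compare levels between genes. Their normalized counts, fold changes and p-values in the same table were left aside. Gene positions are those the table lists. Upstream sequences of the other members are not reported here.

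Counts were fitted with edgeR 4.0.16 in R 4.3.3 (filterByExpr with a minimum count of 10, TMM, glmQLFit, glmQLFTest, Benjamini-Hochberg adjustment over all genes tested), with genotype as the only term. Genes below the filter were read from the same fit without it. Intervals of fold changes are 95% intervals of the fit. Exact permutation tests used log2(CPM + 0.1), and all 40320 pairings of the 8 tumors for correlations. Alternatives were DESeq2 1.42.0, its size factors in edgeR, limma-voom (limma 3.58.1), no filter, a stricter filter (10 or more counts in each tumor), a replicate block, the robust option of glmQLFit, a pseudocount of 1, values centred within genotype, and each tumor left out in turn. The scripts were tested on simulated data. The labels do not say that a replicate number joins tumors across genotypes. They name each tumor a separate sample, so p-values measure the spread between these tumors. Counts are of reads and not molecules, so count limits cover counting error only.

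The 10 genes and the other gene lists were chosen with earlier results of these data known. The genes named were the 10, the highest and lowest fold change of each further list and any of it with an unadjusted p below 0.05 (both among genes tested), Cfd, Ucp1, and the 10 genes most correlated with Adipoq. Adipor1, Adipor2, Lepr, Acvr1c, Slc2a4, Gpd1, Cidea, Nnat, Fga and Serpina1a were added after their values were seen. Tissue markers other than those of adipose progenitors are given as counts and sums, with names for those below an unadjusted p of 0.05.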

Additional observations from a re-analysis of the deposited data

Results flagged for a closer look

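Within each genotype, a tumor was marked when its gap to the nearest of the other 3 was an unusually large share of the group's range (Dixon's criterion). For normally distributed values chance gives this in about 1 of 20 groups. The values used were CPM without a log, which need not be normal, so the rate for them is not known. Of 56 groups of 4 tumors examined, 17 were marked, and for the 10 adipocyte genes 10 of 20 were, 6 by WT 2 and 4 by C3-/- 1. The genes share these tumors, so the marks are not independent.

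Among WT tumors, WT 2 was far above the others for Adipoq (44.8 CPM, next tumor 2.97), Plin1 (27.9, next 0.595), Cidec (85.7, next 23.7), Lep (2.63, next 0.0621), Retn (22.6, next 1.57) and Fabp4 (312, next 55.4). The same tumor stood apart for the restricted sum (184 CPM, next 25.8) and the broad sum (799 CPM, next 339). Among C3-/- tumors, C3-/- 1 was far above the others for Adipoq (9.06 CPM, next 1.89), Plin1 (2.43, next 0.440), Cidec (32.9, next 13.8) and Retn (4.25, next 0.440), and for the restricted sum (48.9 CPM, next 16.1). Lpl, Pparg, Lipe and Pnpla2 gave no mark in either genotype.

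C3-/- 1 also stood apart for the sums of the adipogenic transcription factors (504 CPM, next 399), the lipolysis genes (657 CPM, next 491) and the acinar markers (1883 CPM, next 66.7). WT 1 stood apart among WT tumors for the sum of B cell markers (5.77 CPM, next 3.23).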

How the results depend on the processing

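With 4 tumors a group and 2 of the 8 far from the rest, the sign of 5 adipocyte genes rested on 1 tumor. Members called at an adjusted p below 0.05 numbered 0 under all 16 alternatives, whereas genes called over the whole table were 16 in DESeq2, 0 to 4 with each tumor left out (4 without C3-/- 1), and 13 without both WT 2 and C3-/- 1. Without WT 2 the log2 fold change turned positive for Adipoq (1.03, lowest of the leave-one-out values -3.06), Plin1 (1.21, lowest -4.68), Lep (2.25, lowest -2.93), Retn (0.59, lowest -3.94) and Lpl (0.28, lowest -0.43), the ratio of restricted sums fell to 0.983 (highest 4.24, without C3-/- 1; 1.54 without both), and the r of Adipoq with Pparg (-0.052, highest 0.77) and Lipe (-0.26, highest 0.88) turned negative. The remaining genes kept their sign without WT 2 but were smaller in size. Fabp4 went from -1.33 to -0.061, Cidec from -1.04 to -0.18, Lipe from -0.36 to -0.048, Pparg from -0.20 to -0.034 and Pnpla2 from -0.56 to -0.39. Without both tumors Lep (1.69) and Lpl (0.14) stayed positive. The reason that WT 2 differs was not tested. Pairs with a positive correlation at an adjusted p below 0.05 were 34 when centred within genotype and 0 to 28 with each tumor left out (0 without WT 2, where the median r was 0.39, and 0 without C3-/- 1, where it was 0.84). Relations of the restricted sum were 4 when centred (Fabp4, Lpl, Pparg and Lipe, while Pnpla2 no longer passed, adjusted p = 0.0894, exact permutation test) and 0 to 2 with each tumor left out. The 1 that passed without WT 2 was to a tissue marker list. The broad genes then had adjusted p of 0.335 to 0.695 (exact permutation test). With the replicate number as a block (replicate block), edgeR called 0 members and 0 genes, with Adipoq at -0.22, Plin1 at -0.97, Lep at -0.26, Retn at -1.39, Fabp4 at -0.76 and Pnpla2 at -0.57. Limma-voom gave Adipoq -0.18, Retn -1.11 and Fabp4 -0.80, against -1.85, -2.16 and -1.33 in edgeR. Residuals of same-numbered tumors correlated at -0.03, 0.49, -0.36 and 0.59. They were not set against tumors of unlike number, so these values do not settle whether the numbers pair the tumors.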
